A study of Homo sapiens with 9 samples.

Results

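Extracellular proteolysis by glioma cells was followed through 73 genes of 19775 that the arrays named. Chosen by symbol, they were every MMP, ADAM, ADAMTS and TIMP gene with a number after its family name (ADAMTS-like and antisense genes left out), together with PLAU, PLAUR, PLAT, RECK and SERPINE2. The rule uses symbols and no measured values. There were 23 MMP, 22 ADAM, 19 ADAMTS and 4 TIMP genes besides those 5. Of the 73, 68 were protein-coding, 4 were transcribed pseudogenes (ADAM3A, ADAM3B, ADAM5 and ADAM6), and ADAMTS16-DT was a long non-coding RNA. MMP24OS entered through its symbol although it is a separate gene on the opposite strand of MMP24.

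U87 is an established human glioma line that grows as a monolayer, and every array came from this single line. Cells were transfected with 50 nM of a microRNA duplex and harvested after 72 h. The duplexes were miR-376a*A, the unedited form, miR-376a*G, the form that A-to-I editing produces, and miR-control, with 3 arrays each. Every group received a duplex and the same transfection reagent, and no untransfected cells were among the 9 arrays. The replicates are described as biological, without naming cultures, days or batches, so the p-values measure the spread between these arrays only. The deposited intensities were already scaled to a common mean, and the median signal lay between 18.0 and 24.6 on the 9 arrays, so a change in total messenger RNA would not show.

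On 2 arrays the profile went against the label. The array labelled miR-376a*A replicate 1 resembled miR-control replicates 2 and 3 (Pearson correlations of 0.987 and 0.990 over genes, which are no replicates) more than those of its own group (0.925 and 0.934). Conversely, the array labelled miR-control replicate 1 resembled replicates 2 and 3 of miR-376a*A (0.990 and 0.982) more than those of its own group (0.935 and 0.934). Labels were kept as deposited. Counts of the whole family and of the lists are therefore given over all 9 arrays and again without both arrays. In that second fit 2 miR-376a*A, 3 miR-376a*G and 2 miR-control arrays remained. Differences of single genes are given without both arrays where stated. Those 2 arrays were left out because of their profiles, so tests without them are not independent of that choice.

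Matrix metalloproteinases (MMPs) are zinc enzymes that cut collagens, laminins and other matrix proteins, and most are secreted or membrane-bound as inactive precursors. ADAM proteases sit in the plasma membrane and shed the ectodomains of growth factors, adhesion molecules and Notch receptors, whereas the secreted ADAMTS enzymes cut proteoglycans such as aggrecan, versican and the brain proteoglycan brevican. The tissue inhibitors of metalloproteinases (TIMPs) bind the active sites of these enzymes. In parallel, urokinase and tissue plasminogen activator turn plasminogen into plasmin, which degrades fibrin and can activate some MMP precursors. Glioma cells are known to invade brain tissue with the help of several of these enzymes.

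The transfected microRNA corresponds to the arm now named hsa-miR-376a-5p, whose mature sequence in RefSeq (GRCh38.p14, chr14:101040788-101040809, plus strand) is shown because the 2 microRNA groups differ in a base of it. Capitals mark the seed, bases 2 to 8, where the editing site lies.
hsa-miR-376a-5p: gUAGAUUCuccuucuaugagua

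Promoter windows of 250 bases before to 50 bases after the start were found in RefSeq (GRCh38.p14) for 41 of the 73 genes. Those of TIMP3 (chr22:32801455-32801754, plus strand), TIMP4 (chr3:12158863-12159162, minus strand) and ADAMTS3 (chr4:72569172-72569471, minus strand) are printed because the first 2 genes fell and ADAMTS3 rose with miR-376a*G. Capitals mark the GC box letters GGGCGG on either strand.
TIMP3: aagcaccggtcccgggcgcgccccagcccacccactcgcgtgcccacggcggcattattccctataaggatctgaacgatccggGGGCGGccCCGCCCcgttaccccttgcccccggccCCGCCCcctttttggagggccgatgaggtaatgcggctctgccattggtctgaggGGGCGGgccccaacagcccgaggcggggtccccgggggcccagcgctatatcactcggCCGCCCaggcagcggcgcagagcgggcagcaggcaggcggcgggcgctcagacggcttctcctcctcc
TIMP4: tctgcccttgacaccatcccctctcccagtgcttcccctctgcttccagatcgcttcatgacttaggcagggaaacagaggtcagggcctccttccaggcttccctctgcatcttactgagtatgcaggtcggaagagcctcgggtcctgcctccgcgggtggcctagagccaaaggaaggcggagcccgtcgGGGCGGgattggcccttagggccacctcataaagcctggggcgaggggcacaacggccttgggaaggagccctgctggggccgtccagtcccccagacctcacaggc
ADAMTS3: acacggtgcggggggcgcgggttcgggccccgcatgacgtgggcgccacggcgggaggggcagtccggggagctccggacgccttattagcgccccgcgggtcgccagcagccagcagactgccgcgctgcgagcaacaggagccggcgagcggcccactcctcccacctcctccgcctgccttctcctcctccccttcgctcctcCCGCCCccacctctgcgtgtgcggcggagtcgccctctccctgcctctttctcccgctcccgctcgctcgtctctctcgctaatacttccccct
The TIMP3 window held 5 such matches, and the windows of TIMP4 and ADAMTS3 held 1 each. These letters occurred in 29 of the 44 promoters of the family, against 44.95% of 35116 promoters of this length. Letters of an AP-1 site (TGANTCA, either strand) were in 5 of the 44, those of ADAMTS12, MMP10, MMP20, MMP7 and PLAUR, against 7.71% of all, and in none of the 3 windows printed here. A match is a description of letters and not a binding site.

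Of the 73 genes, 49 exceeded the array median on 3 or more arrays and were tested. The other 24 stayed dim, with signals between 0.337 and 27.0. Among the dim genes were MMP10 and MMP13, a stromelysin and a collagenase, the membrane-type genes MMP15 and MMP24, and the testis genes ADAM2, ADAM18 and ADAM30. The tested genes spanned 16 MMP, 13 ADAM and 11 ADAMTS genes, all 4 TIMP genes, and PLAU, PLAUR, PLAT, RECK and SERPINE2. Differences are on the scale of log2(signal + 1), which understates changes of dim genes, and a gene was called where its p from limma, adjusted by the Benjamini-Hochberg method over the 12587 genes tested, was under 0.05.

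The comparison of miR-376a*A with miR-control asks what the unedited microRNA changes. None of the 49 genes was called over all 9 arrays, where 0% of all tested genes were called by limma, and 3 of the 49 had an unadjusted p under 0.05. The median difference was 0.11 for the family and -0.02 for all genes. With both arrays left out, 26 of the 49 were called, or 53.1%, against 41.9% of all genes. They were 21 higher (19.0% of all genes) and 5 lower (22.9% of all genes), with a median of 0.36 against 0.00 for all genes. All 4 TIMP genes were among those called higher, as were PLAU, PLAUR, PLAT and SERPINE2.

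For miR-376a*G against miR-control, which asks what the edited microRNA changes, 17 of the 49 genes were called, or 34.7%, close to the 33.4% of all genes. There were 11 falls and 6 rises, against 15.4% and 18.0% of all genes. TIMP2, TIMP3 and TIMP4, the sheddase gene ADAM10 and the gelatinase gene MMP2 fell, while ADAMTS1, ADAMTS3 and ADAMTS5 and the membrane-type MMP16 rose. The median was 0.04, against 0.12 for all genes. Without both arrays 31 were called, or 63.3% against 56.1% of all genes, with 15 higher and 16 lower (31.2% and 25.0% of all genes) and a median of 0.22 against 0.12. All 17 genes called over the 9 arrays were again called in the same direction.

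The direct comparison of the 2 microRNA forms, which share all but the edited base, is given throughout as miR-376a*A minus miR-376a*G. In it 18 of the 49 genes were called, or 36.7%, against 38.2% of all genes. The calls split into 12 higher with miR-376a*A (16.4% of all genes) and 6 lower (21.8%), and the median was 0.11 against -0.14. Without both arrays 29 were called, or 59.2% against 59.6%, with 20 higher and 9 lower (25.7% and 34.0% of all genes) and a median of 0.20 against -0.12. The 3 comparisons share their arrays pairwise, so their calls are not independent of each other.

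**Figure D1:**
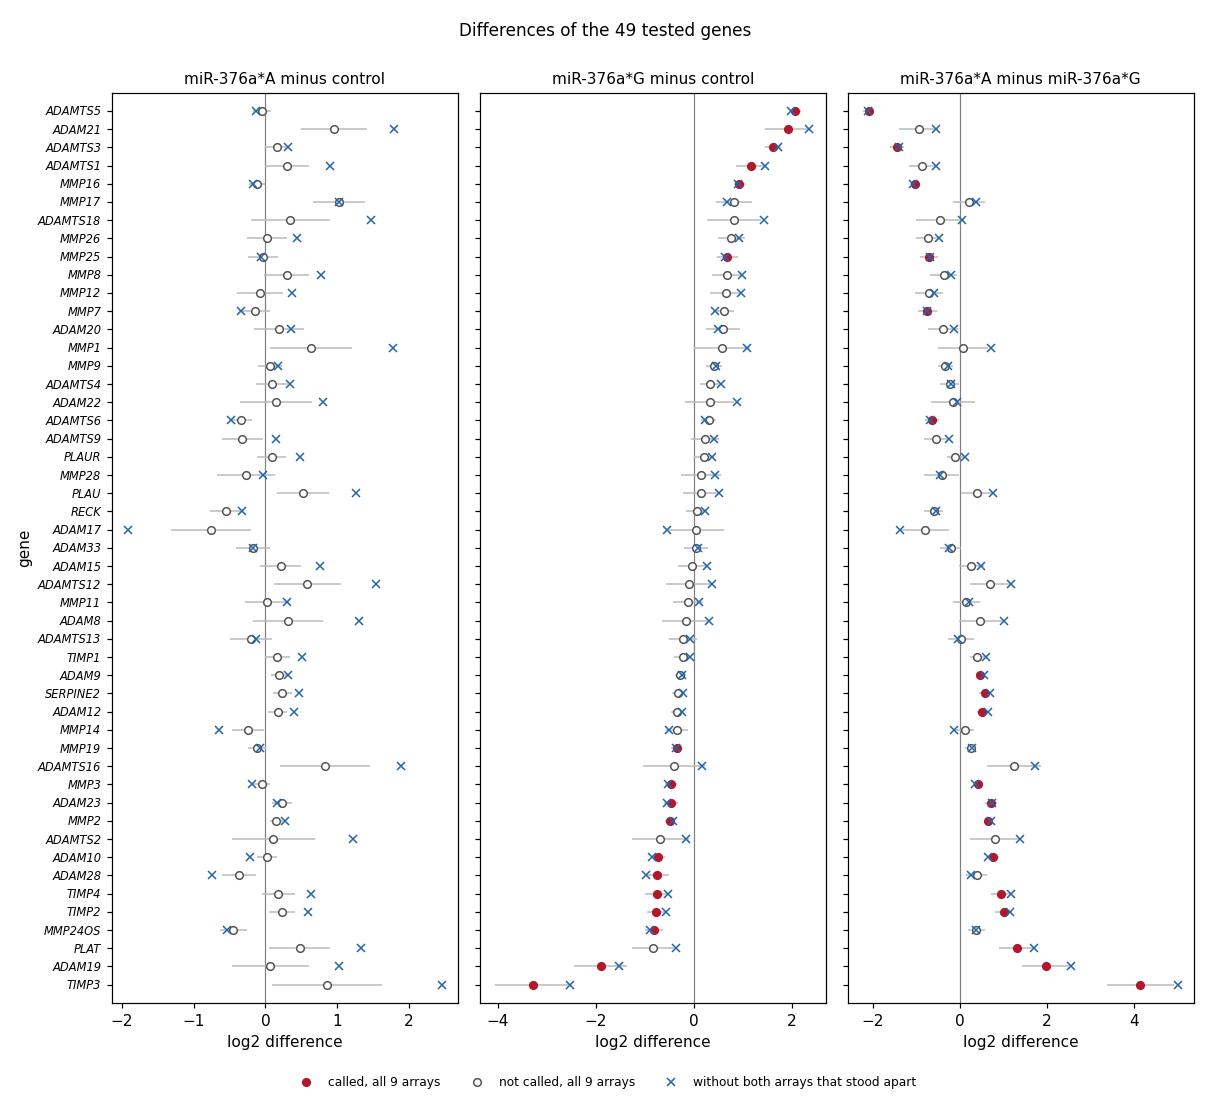
Log2 differences (horizontal axis, log2(signal + 1)) of the tested genes in the 3 comparisons, with filled points where the adjusted p was under 0.05. No gene was called between miR-376a*A and miR-control, while TIMP3 lay at -3.28 and ADAMTS5 at 2.06 between miR-376a*G and miR-control.

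The direction of such splits rested on how the arrays were scaled. Between miR-376a*G and miR-control the deposited scale gave 6 genes higher and 11 lower, quantile normalization 5 and 13, and centring on the medians 5 and 15. Scaling to the hybridisation controls gave 13 and 3, and scaling to the spiked poly-A controls 15 and 2. Those 2 scalings moved the median of all genes to 0.43 and 0.44, from 0.12 on the deposited scale, and centring moved it to -0.12. Each of the 17 called genes kept its sign under the 4 other scalings, and 7 stayed called under all of them, namely TIMP3, ADAM19, ADAM21, ADAMTS1, ADAMTS3, ADAMTS5 and MMP16. Of these, ADAM21 was high with miR-376a*G and entered the tests only with those arrays counted. Between the forms the split was 12 higher and 6 lower on the deposited scale, 13 and 4 after quantile normalization, 15 and 3 after centring, 2 and 19 with the hybridisation controls and 9 and 11 with the poly-A controls, at all-gene medians of -0.14, -0.08, 0.12, -0.75 and -0.32. There 14 of the 18 called genes kept their sign throughout, and 5 stayed called, namely TIMP3, ADAM19, ADAMTS3, ADAMTS5 and MMP16. The mean log2 signal of the hybridisation controls was 8.04 to 8.18 on miR-376a*A arrays, 7.44 to 7.56 on miR-376a*G arrays and 7.73 to 7.90 on miR-control arrays, and its part in these splits was not tested.

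Among the inhibitors, TIMP3, which is held in the matrix and blocks ADAM and ADAMTS enzymes as well as MMPs, set miR-376a*G arrays furthest from the other arrays. Its signal was 273, 1520 and 1783 with miR-376a*A, 54.6, 50.4 and 46.6 with miR-376a*G, and 1395, 317 and 279 with miR-control, in the order of replicates 1, 2 and 3 that is kept for all genes. Every miR-376a*G array lay below all other arrays, and the arrays that stood apart carried the lowest miR-376a*A and the highest miR-control signal. TIMP3 fell by 3.28 with miR-376a*G relative to miR-control (SE 0.77, adjusted p = 0.0104). It was 4.14 higher with miR-376a*A than with miR-376a*G (SE 0.77, adjusted p = 0.00298). Against miR-control, miR-376a*A differed by 0.86 (SE 0.77, adjusted p = 0.886), so the groups overlapped.

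Without both arrays the TIMP3 differences were 2.46 for miR-376a*A against miR-control, -2.54 for miR-376a*G against miR-control and 5.0 between the forms, all called. The first of these thus passed the test only without the arrays that stood apart. The 4 probe sets of TIMP3 gave one sign per comparison, from -3.28 to -1.83 between miR-376a*G and miR-control and, without both arrays, from 2.37 to 2.73 between miR-376a*A and miR-control. Averaging the 4 probe sets ended the call between miR-376a*G and miR-control over all 9 arrays.

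TIMP2, a secreted inhibitor that also takes part in the activation of pro-MMP2 at the cell surface, had a signal of 813, 1083 and 1181 with miR-376a*A, 481, 500.4 and 539 with miR-376a*G, and 1134, 758 and 748 with miR-control. The miR-376a*G arrays were again the lowest, and no other array reached down to them. TIMP2 fell by 0.77 with miR-376a*G against miR-control (SE 0.19, adjusted p = 0.0127) and was 1.00 higher with miR-376a*A than with miR-376a*G (SE 0.19, adjusted p = 0.00317). With miR-376a*A it differed from miR-control by 0.23 (SE 0.19, adjusted p = 0.886). Without both arrays these differences were -0.57, 1.16 and 0.59, and all 3 were called. Under either control-based scaling TIMP2 was no longer called between miR-376a*G and miR-control.

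TIMP4, a secreted inhibitor with a narrower tissue range, was also lowest on the 3 miR-376a*G arrays. Its signal was 519, 822 and 825 with miR-376a*A, 393, 362 and 347 with miR-376a*G, and 867, 505 and 552 with miR-control. It fell by 0.76 with miR-376a*G against miR-control (SE 0.24, adjusted p = 0.0341) and was 0.94 higher with miR-376a*A than with miR-376a*G (SE 0.24, adjusted p = 0.0125). Leaving out any miR-376a*G array, miR-control replicate 1 or miR-control replicate 3 ended the first of these calls, as did both control-based scalings, and leaving out miR-376a*A replicate 3 ended the second. Without both arrays TIMP4 was called in all 3 comparisons, at 0.64 for miR-376a*A against miR-control, -0.52 for miR-376a*G against miR-control and 1.16 between the forms.

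TIMP1, a broadly acting inhibitor that blocks most secreted MMPs, was not called over the 9 arrays. Its signal was 2087, 3332 and 2903 with miR-376a*A, 1969, 2218 and 2020.3 with miR-376a*G, and 2968, 2119.6 and 2269 with miR-control. Differences were 0.17 for miR-376a*A against miR-control, -0.23 for miR-376a*G against miR-control and 0.40 between the microRNA forms, with an SE of 0.18 each. The groups overlapped in each comparison. Without both arrays TIMP1 was called higher with miR-376a*A, by 0.50 over miR-control and by 0.59 over miR-376a*G, and was at -0.09 between miR-376a*G and miR-control, which was not called.

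RECK, a membrane-anchored protein that restrains several MMPs, gave no single answer across its probe sets. The brightest read 132, 166 and 138 with miR-376a*A, 229.8, 182 and 257 with miR-376a*G, and 264, 233 and 156 with miR-control. It differed by -0.61 between the forms (SE 0.22, adjusted p = 0.0518), and another RECK probe set differed by 1.13 in the same comparison. The direction of RECK is therefore unsettled here.

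**Figure D2:**
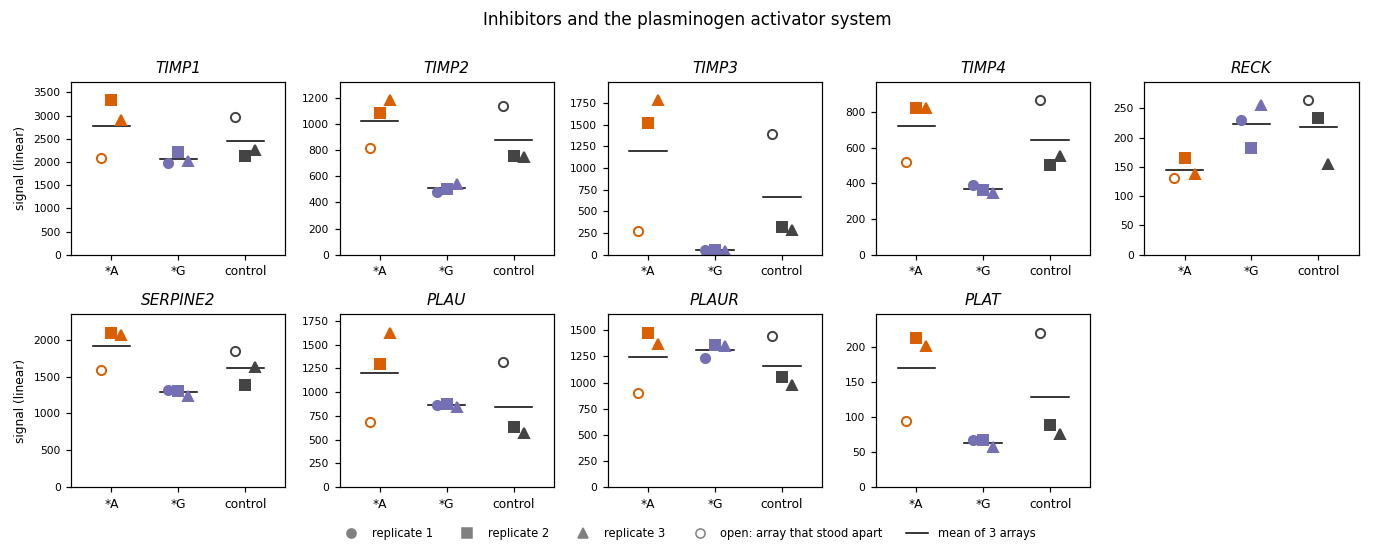
Signal (linear vertical axis) of inhibitor and plasminogen activator genes on each array, grouped as miR-376a*A, miR-376a*G and miR-control, with lines at group means and open symbols for the 2 arrays that stood apart. TIMP3 read 46.6 to 54.6 on miR-376a*G arrays, while its open symbols lie at 273 (miR-376a*A) and 1395 (miR-control).

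Of the plasminogen activation genes, none was called between miR-376a*G and miR-control over the 9 arrays, and PLAT and SERPINE2 were called higher with miR-376a*A than with miR-376a*G. PLAT, which encodes tissue plasminogen activator, read 93.4, 213 and 201 with miR-376a*A, 66.7, 66.7 and 56.5 with miR-376a*G, and 219.8, 88.1 and 75.2 with miR-control. All miR-376a*G arrays lay below the others. The difference between the forms was 1.32 (SE 0.42, adjusted p = 0.0367), a call that ended without miR-376a*A replicate 2 or 3 or without any one miR-376a*G array. Between miR-376a*G and miR-control it was -0.84 (SE 0.42, adjusted p = 0.162). Without both arrays PLAT was called in all 3 comparisons, at 1.33 for miR-376a*A and -0.36 for miR-376a*G against miR-control, and at 1.70 between the 2 forms.

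SERPINE2 encodes protease nexin-1, a serpin that inhibits thrombin, urokinase and plasmin. It read 1590.1, 2096 and 2060.2 with miR-376a*A, 1319.9, 1303 and 1241 with miR-376a*G, and 1851, 1390.5 and 1629 with miR-control. The miR-376a*G arrays were the lowest, by a small margin from miR-control replicate 2. SERPINE2 was 0.56 higher with miR-376a*A than with miR-376a*G (SE 0.13, adjusted p = 0.00915), and this turned to -0.05 when arrays were scaled to the hybridisation controls. Against miR-control it differed by 0.24 with miR-376a*A and by -0.32 with miR-376a*G, neither called, while without both arrays it was called at 0.47 and -0.23.

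PLAU and PLAUR encode urokinase and the receptor that holds it at the cell surface. PLAU read 683, 1293 and 1627 with miR-376a*A, 868, 878 and 839 with miR-376a*G, and 1321, 631 and 574 with miR-control, so the spread within the miR-376a*A and miR-control groups exceeded the difference between them. PLAUR read 895, 1477 and 1365 with miR-376a*A, 1234, 1355 and 1347 with miR-376a*G, and 1448, 1056 and 980.4 with miR-control, with the same overlap. Neither was called over the 9 arrays in any comparison. Without both arrays PLAU was called higher than in miR-control with miR-376a*A (1.27) and with miR-376a*G (0.52), and 0.75 higher with miR-376a*A than with miR-376a*G. Also without both arrays, PLAUR was called at 0.48 and 0.36 against miR-control and was not called between the forms (0.12).

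Of the 13 tested ADAM genes, 4 fell and ADAM21 rose with miR-376a*G against miR-control, and 5 were higher with miR-376a*A than with miR-376a*G. The median ADAM difference was -0.16 in the first comparison and 0.39 in the second. ADAM10, the sheddase that cuts Notch, cadherins and the prion and amyloid precursor proteins, read 938, 698 and 792 with miR-376a*A, 456, 492 and 475 with miR-376a*G, and 668, 835 and 888 with miR-control. The 3 miR-376a*G arrays were close together and below every other array. ADAM10 fell by 0.74 against miR-control (SE 0.14, adjusted p = 0.00372) and was 0.76 higher with miR-376a*A than with miR-376a*G (SE 0.14, adjusted p = 0.00286). Without both arrays these were -0.86 and 0.65, both called, while miR-376a*A against miR-control gave -0.21 and was not. Its 3 probe sets all lay lower with miR-376a*G than with miR-control, from -1.11 to -0.67.

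ADAM17, which releases tumour necrosis factor and several EGF-family ligands, was looked at after its values were seen. It read 397, 138 and 109 with miR-376a*A, 318, 320.3 and 317 with miR-376a*G, and 134, 445 and 491 with miR-control. The array labelled miR-376a*A replicate 1 lay among the high miR-control arrays, and the array labelled miR-control replicate 1 among the low miR-376a*A arrays. Over all 9 arrays ADAM17 differed by -0.76 between miR-376a*A and miR-control (SE 0.56, adjusted p = 0.886), by 0.05 between miR-376a*G and miR-control and by -0.81 between the forms, with no call. Without both arrays it was called lower with miR-376a*A than with miR-control (-1.92), lower with miR-376a*G than with miR-control (-0.55) and lower with miR-376a*A than with miR-376a*G (-1.37). The 3 ADAM17 probe sets gave -1.92, -1.91 and -1.89 for miR-376a*A against miR-control without both arrays.

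ADAM19, a membrane protease that cuts neuregulins, had the widest fall among the ADAM genes. It read 68.9, 254 and 214 with miR-376a*A, 56.1, 23.3 and 44.9 with miR-376a*G, and 252, 118 and 109 with miR-control, and every miR-376a*G array lay below the rest. ADAM19 fell by 1.90 with miR-376a*G against miR-control (SE 0.54, adjusted p = 0.0243) and was 1.97 higher with miR-376a*A than with miR-376a*G (SE 0.54, adjusted p = 0.0188). Leaving out miR-376a*G replicate 2, miR-376a*G replicate 3 or miR-control replicate 1 ended the first call, and leaving out miR-376a*A replicate 2 or 3 or miR-376a*G replicate 2 ended the second. A second ADAM19 probe set had the opposite signs, at 0.13 and -0.21, and the mean of both was not called. Without both arrays ADAM19 was called in all 3 comparisons. Its differences were then 1.03 for miR-376a*A and -1.52 for miR-376a*G against miR-control, and 2.55 between the forms.

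ADAM23, ADAM28, ADAM12, ADAM9 and ADAM21 were the other ADAM genes called over the 9 arrays. ADAM23, an adhesion protein without protease activity that is known from brain, read 127, 128 and 136 with miR-376a*A, 70.6, 80.0 and 89.1 with miR-376a*G, and 98.6, 116 and 119 with miR-control. It fell by 0.47 against miR-control (adjusted p = 0.0264), was 0.70 higher with miR-376a*A than with miR-376a*G (adjusted p = 0.00384), and had 1 of its 4 probe sets the other way in both. ADAM28, a protease first described in lymphocytes, read 38.3, 26.2 and 30.0 with miR-376a*A, 22.7, 23.8 and 24.3 with miR-376a*G, and 29.2, 49.9 and 45.6 with miR-control, falling by 0.76 against miR-control (adjusted p = 0.0367). Without both arrays ADAM28 was called lower than in miR-control with miR-376a*A (-0.75) as well as with miR-376a*G (-0.99). Its call over the 9 arrays ended without any one miR-376a*G array, and without miR-376a*A replicate 3, miR-control replicate 2 or miR-control replicate 3. That of ADAM23 against miR-control ended without miR-376a*G replicate 1 or 2 or miR-control replicate 2 or 3, and both ADAM23 calls ended when its probe sets were averaged.

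ADAM12 and ADAM9, membrane proteases that can shed heparin-binding EGF, were called over the 9 arrays between the 2 microRNA forms only. ADAM12 read 1063, 1357 and 1456 with miR-376a*A, 883, 911 and 896 with miR-376a*G, and 1294, 1004 and 1135 with miR-control, and was 0.51 higher with miR-376a*A than with miR-376a*G (adjusted p = 0.0142, not called without miR-376a*A replicate 3). ADAM9 read 1297, 1405 and 1691 with miR-376a*A, 967, 1157 and 1038 with miR-376a*G, and 1355, 1257 and 1225 with miR-control, and was 0.47 higher (adjusted p = 0.0106). Scaled to the hybridisation controls these turned to -0.10 for ADAM12 and -0.15 for ADAM9. Against miR-control with miR-376a*G the differences were -0.34 and -0.28, neither called over the 9 arrays. Without both arrays ADAM12 was called against miR-control, at 0.40 with miR-376a*A and -0.25 with miR-376a*G. ADAM21, an ADAM gene known mainly from testis, was dim, at 13.0, 28.5 and 34.8 with miR-376a*A, 50.7, 39.7 and 49.7 with miR-376a*G, and 22.0, 10.7 and 6.52 with miR-control, and rose by 1.91 with miR-376a*G (adjusted p = 0.0114). Without both arrays ADAM21 was called higher than in miR-control with miR-376a*A (1.80) and with miR-376a*G (2.34). It was not called between the forms there (-0.54). ADAM21 exceeded the array median on 2 miR-376a*A, 3 miR-376a*G and 0 miR-control arrays. It thus entered the tests only with miR-376a*G arrays counted, and its calls against miR-control are no support for a difference.

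The 8 ADAM genes not called between miR-376a*G and miR-control over the 9 arrays lay between -0.34 and 0.59 there. Without both arrays the ADAM counts became 6 higher and 2 lower for miR-376a*A against miR-control (19.0% and 22.9% of all genes). For miR-376a*G against miR-control they became 1 higher and 6 lower (31.2% and 25.0%). Between the forms they became 7 higher and 1 lower (25.7% and 34.0%). ADAM8, a protease of myeloid cells and of tumours that was singled out after its values were seen, was among the ADAM genes called then. It read 57.2, 188 and 167 with miR-376a*A, 81.8, 97.7 and 84.9 with miR-376a*G, and 185, 64.3 and 79.3 with miR-control. Its difference between miR-376a*A and miR-control was 0.31 over all arrays, not called, and 1.3 without both arrays, called.

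**Figure D3:**
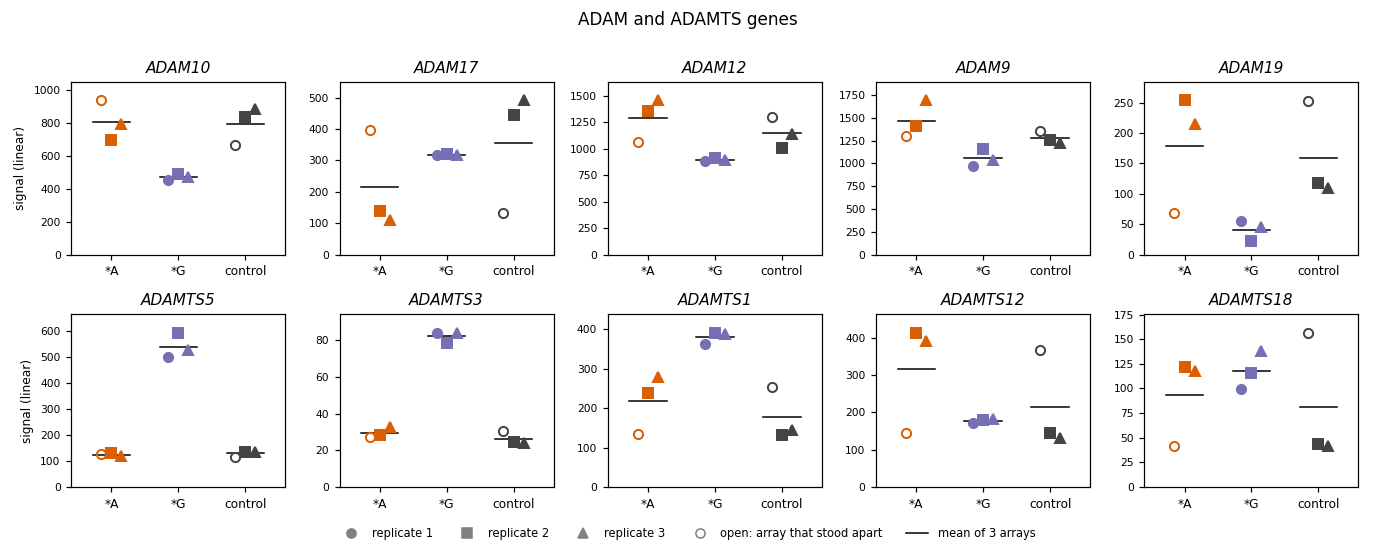
Signal (linear vertical axis) of ADAM and ADAMTS genes on each array by group, with lines at group means and open symbols for the 2 arrays that stood apart. ADAMTS5 read 499 to 593 on miR-376a*G arrays, above all others, while the open ADAM17 symbols lie at 397 (miR-376a*A) and 134 (miR-control).

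Of the 11 tested ADAMTS genes, 3 rose and none fell with miR-376a*G against miR-control. ADAMTS5, the main aggrecan-cleaving enzyme of cartilage, which also cuts versican and brevican, read 127, 129 and 117 with miR-376a*A, 499, 593 and 526 with miR-376a*G, and 116, 135 and 136 with miR-control. The miR-376a*A and miR-control arrays overlapped, those that stood apart included. ADAMTS5 rose by 2.06 with miR-376a*G against miR-control (SE 0.12, adjusted p = 1.17e-05) and differed by -2.10 between the forms (SE 0.12, adjusted p = 8.89e-06). With miR-376a*A it differed from miR-control by -0.05 (SE 0.12, adjusted p = 0.937). Its 4 probe sets gave 2.06 to 2.75 between miR-376a*G and miR-control, and each call held without any one array.

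ADAMTS3, which trims the amino end of procollagen and activates the lymphatic growth factor VEGF-C, read 27.2, 28.2 and 32.9 with miR-376a*A, 84.2, 78.3 and 83.8 with miR-376a*G, and 30.5, 24.8 and 23.9 with miR-control. All miR-376a*G arrays lay above the rest. ADAMTS3 rose by 1.61 against miR-control (SE 0.16, adjusted p = 0.000133), and the difference between the forms was -1.45 (SE 0.16, adjusted p = 0.000205). Without both arrays these were 1.71 and -1.40, both called.

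ADAMTS1, which cuts versican and aggrecan and is known as an inhibitor of vessel growth, read 134, 239 and 279 with miR-376a*A, 363, 391 and 386 with miR-376a*G, and 254, 133 and 143 with miR-control. It rose by 1.16 with miR-376a*G against miR-control (SE 0.31, adjusted p = 0.0174), a call that ended without miR-376a*G replicate 2 or 3 or miR-control replicate 2 or 3. The 2 arrays that stood apart again carried the lowest miR-376a*A and the highest miR-control signal. Without both arrays ADAMTS1 was called in all comparisons, at 0.90 for miR-376a*A and 1.45 for miR-376a*G against miR-control, and at -0.55 between the forms.

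In the direct comparison of the forms the ADAMTS genes called were ADAMTS3, ADAMTS5 and, named after its values were seen, ADAMTS6, which differed by -0.64 (SE 0.16, adjusted p = 0.0108). The 8 ADAMTS genes other than ADAMTS1, ADAMTS3 and ADAMTS5 lay between -0.69 and 0.81 in miR-376a*G against miR-control. Without both arrays 5 ADAMTS genes were called higher and 1 lower with miR-376a*A than with miR-control, beside 19.0% and 22.9% of all genes. Among the 5, and named after their values were seen, were ADAMTS12 and ADAMTS18. ADAMTS12 read 144, 414 and 391 with miR-376a*A, 172, 178 and 182 with miR-376a*G, and 367, 144 and 131 with miR-control, which gave 0.58 (not called) over all arrays and 1.54 without both. ADAMTS18 read 41.6, 122 and 118 with miR-376a*A, 99.4, 116 and 138 with miR-376a*G, and 157, 43.5 and 42.1 with miR-control, which gave 0.35 (not called) over all arrays and 1.47 without both. Without both arrays ADAMTS18 was also called higher with miR-376a*G than with miR-control (1.43), and the forms differed by 0.04. In both genes the arrays that stood apart had the lowest miR-376a*A and the highest miR-control signal.

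Of the 16 tested genes with MMP symbols, 4 fell and 2 rose with miR-376a*G against miR-control, and MMP24OS was among those that fell. MMP2, the gelatinase that cuts type IV collagen of basement membranes, read 2098, 2409 and 2287 with miR-376a*A, 1363, 1374 and 1595 with miR-376a*G, and 2222, 1979.8 and 1912 with miR-control. The miR-376a*G arrays were all lowest. MMP2 fell by 0.50 against miR-control (SE 0.09, adjusted p = 0.00336), and was 0.65 higher with miR-376a*A than with miR-376a*G (SE 0.09, adjusted p = 0.000754). Without both arrays these were -0.43 and 0.70, and miR-376a*A against miR-control, at 0.15 over all arrays, became 0.27 and was called. Neither call was made with probe sets averaged, and the fall with miR-376a*G was not called under either control-based scaling.

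MMP3, stromelysin-1, which cuts many matrix proteins and activates other MMP precursors, read 1173, 939 and 1119.6 with miR-376a*A, 803, 792 and 820.4 with miR-376a*G, and 1013, 1063 and 1283 with miR-control. It fell by 0.47 with miR-376a*G against miR-control (SE 0.12, adjusted p = 0.0135) and was 0.41 higher with miR-376a*A than with miR-376a*G (SE 0.12, adjusted p = 0.0208). The first was not called under either control-based scaling. The second turned to -0.20 with the hybridisation controls, and was not called without miR-376a*A replicate 3 or any one miR-376a*G array.

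MMP19, a widely expressed MMP that cuts basement membrane proteins, read 86.2, 99.9 and 87.8 with miR-376a*A, 79.1, 75.6 and 76.2 with miR-376a*G, and 98.7, 102 and 95.7 with miR-control. Its fall with miR-376a*G, 0.36 (SE 0.12, adjusted p = 0.0453), stayed called only without miR-376a*A replicate 1 or 2 among the arrays left out singly. MMP24OS read 375.8, 452 and 300.01 with miR-376a*A, 248, 281 and 335 with miR-376a*G, and 452, 607 and 471 with miR-control, and fell by 0.82 with miR-376a*G (SE 0.19, adjusted p = 0.00921). Without both arrays MMP24OS was called lower than in miR-control with miR-376a*A (-0.54) as well as with miR-376a*G (-0.90). Between the forms MMP19 differed by 0.24, MMP24OS by 0.38 and ADAM28 by 0.39, none called.

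MMP16, a membrane-type MMP that is known from brain tumours and can activate pro-MMP2, rose. It read 97.9, 92.5 and 89.6 with miR-376a*A, 192, 198 and 189.97 with miR-376a*G, and 97.9, 106 and 100.4 with miR-control. The miR-376a*G arrays lay well above both other groups, which overlapped. MMP16 rose by 0.92 with miR-376a*G against miR-control (SE 0.11, adjusted p = 0.000307) and differed by -1.04 between the forms (SE 0.11, adjusted p = 0.000149). Without both arrays the values were 0.90 and -1.08, both called.

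MMP25, a glycolipid-anchored MMP of leukocytes, read 21.1, 20.1 and 24 with miR-376a*A, 39.7, 27.7 and 42.9 with miR-376a*G, and 20.9, 21.8 and 24.1 with miR-control. It rose by 0.68 with miR-376a*G (SE 0.21, adjusted p = 0.0344) and differed by -0.71 between the forms (SE 0.21, adjusted p = 0.0256). Averaging of probe sets ended both calls, as it did for MMP19. The first call also ended without miR-376a*G replicate 1 or 3 or any one miR-control array, and the second without miR-376a*A replicate 2 or miR-376a*G replicate 1 or 3. MMP7, matrilysin, read 32.1, 28 and 33.9 with miR-376a*A, 60.5, 44.2 and 56.3 with miR-376a*G, and 27.1, 34.4 and 44.8 with miR-control. It was called between the forms (-0.75, SE 0.22, adjusted p = 0.0240), though not without miR-376a*A replicate 2 or miR-376a*G replicate 1 or 3, and not between miR-376a*G and miR-control (0.60, adjusted p = 0.0623).

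Without both arrays the MMP counts, MMP24OS included, were 2 higher and 2 lower for miR-376a*A against miR-control (19.0% and 22.9% of all genes). For miR-376a*G against miR-control they were 6 higher and 5 lower (31.2% and 25.0%). Between the forms they were 3 higher and 3 lower (25.7% and 34.0%). MMP8, a neutrophil collagenase, and MMP12, a macrophage elastase, were then called higher with miR-376a*G than with miR-control, at 0.97 and 0.96, from dim signals. On the deposited arrays MMP8 read 15.2 to 27.1 with miR-376a*A, 23.8 to 29.9 with miR-376a*G and 12.6 to 24.8 with miR-control. MMP12 read 11.8 to 18.6 with miR-376a*A, 21.3 to 29.3 with miR-376a*G and 11.1 to 24 with miR-control. Over all 9 arrays neither gene was called. MMP8 exceeded the array median on 1 miR-376a*A, 3 miR-376a*G and 1 miR-control array, and MMP12 on 0, 2 and 1. Both reached the 3 arrays needed only with miR-376a*G arrays counted, so their calls without both arrays are no support for a difference. MMP26, a small MMP, read 10.0 to 18.2 with miR-376a*A, 24.5 to 26.7 with miR-376a*G and 12.3 to 18.6 with miR-control. It exceeded the array median on the 3 miR-376a*G arrays alone, so it entered the tests only through the group where it was high, and its call without both arrays is no support for a difference. Leaving it out, 5 MMP genes were higher and 5 lower in that fit, and 14 and 16 of 48 genes of the whole family.

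MMP1 and MMP14, named after their values were seen, differed from miR-control with either microRNA form once both arrays were left out. MMP1, the interstitial collagenase, read 20.9, 71.6 and 94.2 with miR-376a*A, 45.2, 47.9 and 58.3 with miR-376a*G, and 67.7, 27.3 and 20.0 with miR-control. It was 0.63 higher with miR-376a*A than with miR-control over all arrays (SE 0.57, adjusted p = 0.886), and 1.77 higher without both, which was called. MMP14, the membrane-type MMP that activates pro-MMP2 together with TIMP2, read 337, 211 and 195 with miR-376a*A, 233, 214 and 222 with miR-376a*G, and 225, 320.4 and 318 with miR-control. It differed by -0.24 between miR-376a*A and miR-control over all arrays (SE 0.22, adjusted p = 0.886) and by -0.65 without both, which was called. The 4 probe sets of MMP14 gave -2.14 to -0.65 in the latter fit. Also without both arrays, miR-376a*G was called against miR-control at 1.07 for MMP1 and -0.52 for MMP14. Between the forms MMP1 then differed by 0.70 and MMP14 by -0.13. In both genes the 2 arrays that stood apart read close to the other group.

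**Figure D4:**
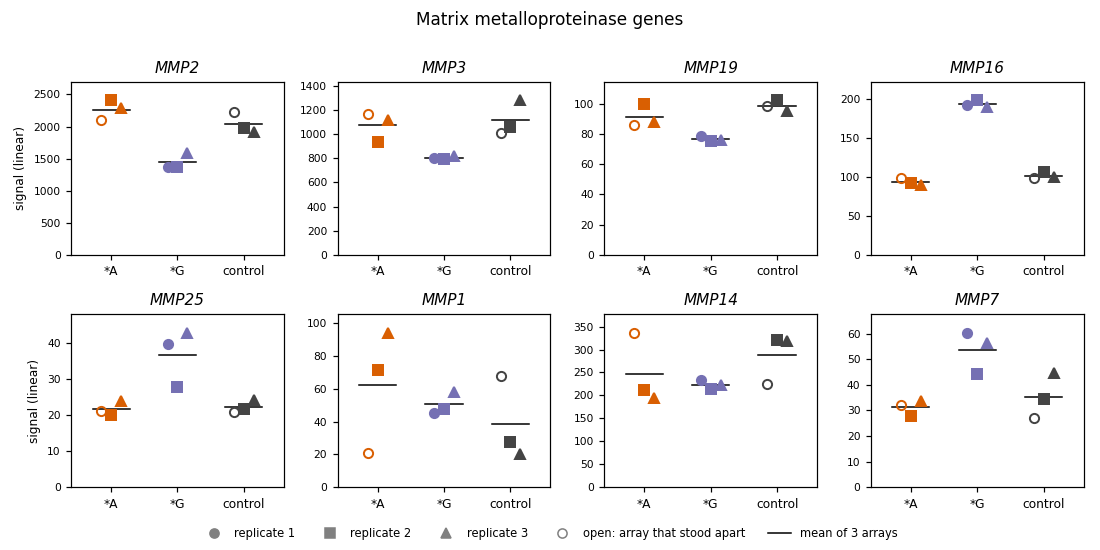
Signal (linear vertical axis) of MMP genes on each array by group, with lines at group means and open symbols for the 2 arrays that stood apart. MMP2 read 1363 to 1595 on miR-376a*G arrays, below the others, and MMP16 read 189.97 to 198 there, above the others.

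No comparison called 9 of the 49 genes, with or without both arrays, namely ADAM20, ADAM22, ADAM33, ADAMTS9, ADAMTS13, MMP9, MMP11, MMP17 and MMP28. MMP9, the second gelatinase, read 31.3 to 41.4 with miR-376a*A, 41.2 to 47.1 with miR-376a*G and 31.1 to 34.7 with miR-control. Its difference between miR-376a*G and miR-control was 0.41 over the 9 arrays.

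Genes that act with these enzymes were read from 5 lists, whose medians stand beside 0.12 for all genes in miR-376a*G against miR-control. In that comparison 33.4% of all tested genes were called, 18.0% higher and 15.4% lower. Of 11 tested partners of the ADAM sheddases, 5 fell and none rose (45.5% called, median -0.41). They included SH3PXD2B and SH3PXD2A (-3.0 and -1.01), scaffolds of the podosomes and invadopodia where membrane proteases gather, and TSPAN5 and TSPAN15 (-0.64 and -0.94), tetraspanins that escort ADAM10. SH3PXD2B read 417, 311 and 389 with miR-376a*A, 43.6, 45 and 53.2 with miR-376a*G, and 314, 431 and 413 with miR-control, so the arrays that stood apart made little difference to it. Of 18 tested substrates of ADAM shedding, 7 fell and 1 rose (44.4% called, median -0.35), with TGFA (-2.25), a growth factor ligand, PRNP (-1.20), the prion protein, and APP (-0.43), the amyloid precursor, lower and NRG1 (0.88), a neuregulin, higher.

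Of 24 other tested proteases and inhibitors of the cell surface and matrix, 8 fell and none rose with miR-376a*G (median -0.44), so that 33.3% were called, close to the share of all genes. HTRA1 (-0.82), a secreted serine protease, PCOLCE2 (-1.69), an enhancer of procollagen processing, BSG (-0.76), the MMP inducer basigin, and DPP4 (-2.50), a surface dipeptidase, had the smallest p. In the plasmin and serpin list 2 rose and 3 fell of 12 (41.7% called, median -0.13). PLGRKT (0.90), a plasminogen receptor, and THBD (1.25), thrombomodulin, rose, while F3 (-1.77), tissue factor, and S100A10 (-0.35), a plasminogen-binding protein, fell. Among 11 AP-1 and ETS factors, families known to bind MMP and PLAU promoters, 3 rose and 4 fell (63.6% called, median -0.11), with FOSL2 (-1.16), ETS1 (-0.90) and JUND (-0.62) lower and ETV4 (1.25) higher. All 33 called genes of these lists kept their sign under the 4 other scalings in this comparison, and 22 stayed called under each of them. Of those named, APP, TSPAN5, S100A10 and JUND were called under only 2 of the 4. Without both arrays this comparison gave 0 higher and 5 lower of 11 partners, and 5 and 10 of 18 substrates. It gave 1 and 12 of 24 other proteases, 3 and 3 of 12 plasmin genes, and 3 and 5 of 11 factors. Of all genes 31.2% were then called higher and 25.0% lower.

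For the forms set against each other the lists gave 5 higher and 0 lower of 11 sheddase partners, 9 and 1 of 18 substrates, 10 and 1 of 24 other proteases, 3 and 2 of 12 plasmin genes, and 4 and 1 of 11 transcription factors. Their medians were 0.53, 0.35, 0.39, 0.25 and 0.32, against -0.14 for all genes, of which 38.2% were called, 16.4% higher and 21.8% lower. Of these 36 calls 26 kept their sign under all 4 other scalings, and 17 stayed called. Without both arrays the forms gave 9 higher and 1 lower of 11 partners, 11 and 3 of 18 substrates, and 13 and 2 of 24 other proteases. They gave 6 and 2 of 12 plasmin genes and 6 and 5 of 11 factors, beside 25.7% of all genes higher and 34.0% lower. Between miR-376a*A and miR-control none of the listed genes was called over the 9 arrays. Without both arrays the counts there were 5 higher and 2 lower of 11 partners, 9 and 3 of 18 substrates, 9 and 7 of 24 other proteases, 3 and 1 of 12 plasmin genes, and 4 and 2 of 11 factors, beside 19.0% of all genes higher and 22.9% lower.

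Markers set the tissue context. All 8 markers of U87 and mesenchymal glioma were above the cut-off, with a summed signal of 13747 to 18143 on miR-376a*A arrays, 10540 to 11455 on miR-376a*G arrays and 12314 to 15303 on miR-control arrays. The astrocyte marker GFAP was near 0, at 1.5 to 5.7 over all arrays, and only 2 of 6 astrocyte markers were tested. Summed astrocyte signal was 373 to 417 with miR-376a*A, 196 to 241 with miR-376a*G and 277 to 400.01 with miR-control. For neurons 4 of 6 markers were tested, with sums of 2458 to 3912 with miR-376a*A, 2153 to 2355 with miR-376a*G and 2292 to 3441 with miR-control. Of the oligodendrocyte, endothelial, leukocyte and epithelial markers 2, 2, 2 and 1 of 5 each were tested, and their highest sum on any array was 217. With miR-376a*G against miR-control, 2 of the 8 U87 markers were called, FN1 (-1.32) and CHI3L1 (-3.03), both lower. Both tested astrocyte markers were called, SLC1A3 lower (-0.92) and ALDH1L1 higher (0.68). Of the 4 neuron markers, SYT1 (-1.12) and MAP2 (-2.23) were called lower and TUBB3 (0.32) higher, and the list's median was -1.14. The endothelial marker KDR (1.23) and the oligodendrocyte marker SOX10 (0.77) were called higher, each 1 of 2 tested, and no leukocyte or epithelial marker was called. Marker calls thus went in both directions. Of all tested genes 33.4% were called in this comparison, 18.0% higher and 15.4% lower, against 25.0% of the 8 U87 markers. The part of these markers in the results was not tested.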

How the data were processed

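Expression was measured on 9 Affymetrix arrays of U87 cells. The authors deposited 1 linear intensity per probe set, which per the submitters' processing notes came from GCOS 1.4.0.036. How probe sets were summarised is not given in the sources used here. Intensities were already scaled, with a mean of 100.01 on each array after trimming 2% at each end. Of 54675 probe sets 41091 had 1 gene symbol in the platform annotation and 1801 had several. Only the first kind was used, which left 19775 genes, 19735 of them matched to RefSeq by Entrez number. ADAM29, MMP23A and MMP23B were on shared probe sets only and were not analysed here. The 73 genes had 166 probe sets, and the brightest over the 9 arrays stood for a gene.

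Here log2(intensity + 1) was fitted with limma 3.58.1 in R 4.3.3 (lmFit and eBayes with a trend, 3 groups, all arrays), with Benjamini-Hochberg adjustment over 12587 genes above the array median on at least 3 arrays. The steps were tested on simulated data. In all, 40 genes were called in any comparison, over all arrays or without both that stood apart. The 24 of them with the smallest p in miR-376a*G against miR-control were given on every array, except MMP8, MMP12 and MMP26, given as ranges. The TIMP and plasminogen genes and RECK were added, with exceptions stated, and up to 4 genes per further list were named. The family, the lists and the choice to leave out 2 arrays were made with earlier results of these data known. Alternatives covered the pseudocount (16), the filter, 4 scalings, probe set averaging, a replicate block, the arrays fitted and arrays left out.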

Additional observations from a re-analysis of the deposited data

How the results depend on the processing

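Over all 9 arrays 0 family genes were called between miR-376a*A and miR-control, and the count was 0 under every alternative except the fit without both arrays that stood apart, where it was 26. Between miR-376a*G and miR-control 17 were called, 31 without both arrays, and 11 to 20 with 1 array left out, the lowest count coming without miR-376a*G replicate 2 and again without replicate 3. Between the 2 forms 18 were called, 29 without both arrays, and 14 to 23 with 1 array left out. Same-numbered arrays deviated from their group means at correlations of -0.88 to 0.05. Both arrays that stood apart are numbered 1, so these correlations cannot settle whether replicate numbers pair the arrays. With the replicate block 0, 10 and 16 genes were called in the 3 comparisons. The pseudocount, the filter on dim genes, the fit of 2 groups alone and the scalings kept each count within 1.5 times of its value here.

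Under quantile normalization the sign turned for ADAM10 (-0.0092) in the unedited form against control. Under centring on the medians the sign turned for PLAU (-0.10), PLAUR (-0.046), RECK (-0.18) and ADAM17 (-0.19) in the edited form against control. The same setting turned PLAUR (0.15) in the unedited against the edited form. Under hybridisation control scaling the sign turned for ADAM10 (-0.27), ADAM12 (-0.12), ADAM19 (-0.22), ADAM23 (-0.062), ADAM9 (-0.11), ADAMTS3 (-0.13), MMP2 (-0.14), MMP26 (-0.26), PLAUR (-0.20), SERPINE2 (-0.055), TIMP1 (-0.13), TIMP2 (-0.062) and TIMP4 (-0.11) in the unedited form against control. The same setting turned ADAM9 (0.040), TIMP1 (0.091), ADAM8 (0.16) and ADAMTS12 (0.22) in the edited form against control. It also turned there for ADAM12 (-0.10), ADAM28 (-0.21), ADAM9 (-0.15), MMP19 (-0.37), MMP24OS (-0.24), MMP3 (-0.20), PLAU (-0.23), SERPINE2 (-0.053), TIMP1 (-0.22), ADAM8 (-0.14), MMP1 (-0.54) and MMP14 (-0.50) in the unedited against the edited form. Under poly-A control scaling the sign turned for ADAMTS5 (0.10), MMP12 (0.063), MMP16 (0.028), MMP19 (0.029), MMP25 (0.11) and MMP3 (0.093) in the unedited form against control. It also turned there for ADAM9 (0.048), SERPINE2 (0.0051), TIMP1 (0.099), ADAM8 (0.17) and ADAMTS12 (0.22) in the edited form against control. The same setting turned MMP1 (-0.12) and MMP14 (-0.073) in the unedited against the edited form. Under averaging of probe sets the sign turned for ADAM19 (-0.0056), ADAM23 (-0.086), MMP16 (0.038) and RECK (0.015) in the unedited form against control. The same setting turned RECK (-0.055), ADAM8 (0.056) and ADAMTS12 (0.026) in the edited form against control. It also turned there for RECK (0.069) in the unedited against the edited form. With both arrays that stood apart left out the sign turned for ADAM10 (-0.21) and MMP12 (0.37) in the unedited form against control. It also turned there for ADAM17 (-0.55), ADAM8 (0.30) and ADAMTS12 (0.37) in the edited form against control. The same setting turned PLAUR (0.12), ADAMTS18 (0.041) and MMP14 (-0.13) in the unedited against the edited form. With 1 array left out at a time, signs changed within the range of ADAM10 (-0.10 to 0.12), ADAM19 (-0.28 to 0.65), ADAM8 (-0.00095 to 0.85), MMP12 (-0.28 to 0.24), MMP25 (-0.10 to 0.023), MMP26 (-0.12 to 0.28), MMP3 (-0.12 to 0.047), MMP7 (-0.32 to 0.029) and PLAUR (-0.050 to 0.31) in the unedited form against control. Such ranges were also found for ADAM17 (-0.55 to 0.38), ADAM8 (-0.46 to 0.30), ADAMTS12 (-0.37 to 0.37), PLAU (-0.084 to 0.52) and RECK (-0.17 to 0.21) in the edited form against control. They were found too for ADAMTS18 (-0.72 to 0.041), MMP1 (-0.36 to 0.70), MMP14 (-0.13 to 0.26) and PLAUR (-0.25 to 0.12) in the unedited against the edited form.

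The causes of these turns were not tested. With 3 arrays a group, and 2 for miR-376a*A and miR-control in the fit without both arrays, precision is limited by the number of arrays. In dim genes such as ADAM21, MMP8, MMP12 and MMP26 the signal lay above the array median on some arrays and below it on others.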
